A study of Homo sapiens with 12 samples.

Results

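The genes NUAK1, NUAK2, SIK2, SIK3, MARK1, MARK2, MARK3, MARK4, BRSK1 and BRSK2 encode protein kinases of the AMPK-related family, the closest relatives of the catalytic subunits of AMPK. They were taken by name, as kinases of the NUAK, SIK, MARK and BRSK groups, by a rule that uses no measured value. They are 10 of the 26058 genes in the table, and all 10 were among the 22067 genes with a mean of at least 0.5 RPKM that were tested.

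RNA was sequenced from WT HEK293 cells, which derive from human embryonic kidney, and from a derivative line in which PRKAA1 and PRKAA2, the genes of both AMPK catalytic subunits, had been disrupted with CRISPR (AMPK KO). The design asks whether the response to EGF, and what cordycepin does to it, depend on AMPK, and the transcripts of its relatives were followed through it. All 6 groups were starved of serum for 24 h. The DMSO WT and DMSO AMPK KO groups received the solvent alone, the DMSO EGF WT and DMSO EGF AMPK KO groups received solvent and then epidermal growth factor (EGF) for 30 min, and the Cordycepin EGF WT and Cordycepin EGF AMPK KO groups received 25 µM cordycepin and then EGF for 30 min, within 50 min of treatment. Cordycepin, or 3′-deoxyadenosine, is an analogue of adenosine. Each group had 2 libraries, numbered replicates 2 and 3. The AMPK KO cells are 1 derived line, so the loss of AMPK and any other difference between these lines cannot be told apart. The EGF dose is 15 in all sources, given as nM in some and as µM in others.

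AMPK-related kinases share a kinase domain much like that of the AMPK catalytic subunits, and most of them are switched on by the tumour suppressor kinase LKB1 (gene STK11), which phosphorylates their activation loop. NUAK kinases act on the myosin phosphatase complex and on cell adhesion. SIK kinases phosphorylate the CREB coactivators of the CRTC family and class IIa histone deacetylases, which are then held in the cytoplasm. MARK kinases phosphorylate microtubule-associated proteins and take part in cell polarity, and BRSK kinases are best known for shaping neuronal polarity. Because control of these enzymes is largely by phosphorylation, a transcript level is not a measure of their activity.

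Reads on genes with whole recovered read numbers ran from 3806335 in WT DMSO replicate 3 to 25104904, and the second shallowest library had 12016743. The replicates of WT DMSO correlated least across genes (r = 0.918, against 0.961 to 0.977 in the other groups). PRKAA1 had 21.9 and 15.4 RPKM in the WT DMSO libraries and 7.62 and 7.37 RPKM in the AMPK KO DMSO libraries, so its transcript was lower but still present after the knockout. PRKAA2 had 12.1 and 7.97 RPKM in WT DMSO and 5.59 and 6.08 RPKM in AMPK KO DMSO. The immediate early gene EGR1, the check of EGF stimulation, had 2.64 and 2.38 RPKM in WT DMSO and 230 and 207 RPKM in WT DMSO+EGF. Of the HEK293 markers, VIM had at least 49.1 RPKM, NEFL at least 12.4, KRT18 at least 11.7 and KRT8 at least 8.0 RPKM in every library, whereas NEFM, PAX2 and LHX1 stayed under 1 RPKM. Among markers of other cells, PTPRC reached at most 0.061 RPKM, ESR1 0.269, COL1A1 1.21 and CD14 2.84 RPKM. GATA3 (4.85 to 7.17 RPKM) and KRT19 (7.07 to 23.9 RPKM) were present in every library.

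To show where the transcripts of the 3 members that voom called in the comparisons below begin, the RefSeq promoters (GRCh38.p14, 250 bases before to 50 bases after the start) of BRSK1, MARK4 and MARK2 are printed here, all on the plus strand. Capitals mark the GC box GGGCGG and the short form of the cyclic AMP response element, TGACG, on either strand. BRSK1 starts in chr19:55283747-55284046, MARK4 in chr19:45251021-45251320 and the upstream start of MARK2 in chr11:63838860-63839159.
BRSK1: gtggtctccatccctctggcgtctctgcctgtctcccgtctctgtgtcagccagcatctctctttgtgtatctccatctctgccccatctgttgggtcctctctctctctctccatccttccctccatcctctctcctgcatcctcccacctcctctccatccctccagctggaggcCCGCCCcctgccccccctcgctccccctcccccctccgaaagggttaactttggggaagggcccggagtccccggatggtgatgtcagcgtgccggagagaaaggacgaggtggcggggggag
MARK4: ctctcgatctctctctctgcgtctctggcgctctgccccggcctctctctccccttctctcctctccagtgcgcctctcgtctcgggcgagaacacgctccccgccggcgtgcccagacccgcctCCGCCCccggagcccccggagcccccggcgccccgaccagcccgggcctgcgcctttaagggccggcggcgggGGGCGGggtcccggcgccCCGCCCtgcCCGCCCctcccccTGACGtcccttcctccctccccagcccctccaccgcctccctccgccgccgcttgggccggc
MARK2: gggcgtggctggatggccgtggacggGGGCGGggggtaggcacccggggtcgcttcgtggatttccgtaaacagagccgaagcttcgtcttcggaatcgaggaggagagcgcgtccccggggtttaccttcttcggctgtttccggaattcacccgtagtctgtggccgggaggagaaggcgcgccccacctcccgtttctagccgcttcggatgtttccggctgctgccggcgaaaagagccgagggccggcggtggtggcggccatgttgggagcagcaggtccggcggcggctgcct
The BRSK1 promoter held 11 CG dinucleotides, against 35 in that of MARK4 and 34 in that of MARK2, with a median of 14 over all promoters in the table. The table held 13 promoters for 9 members and no entry for MARK1. A GC box was found in 10 of these 13 promoters, and in 44.95% of all 35116 promoters. The short form TGACG was found in 5 of the 13 (SIK2, SIK3, MARK3, MARK4 and 1 of the BRSK2 promoters), and in 24.55% of all promoters. The full cyclic AMP response element TGACGTCA was in no member's window and in 1.85% of all promoters. An EGR site, GCGGGGGCG, was found in 3 of the 13 (NUAK1, SIK2 and MARK3), and in 5.07% of all promoters. Both strands were searched, and TGACGTCA contains TGACG.

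By mean level over the 12 libraries, the order from highest to lowest was BRSK1 (9.63 RPKM), MARK4 (8.0), MARK3 (7.76), SIK2 (7.35), BRSK2 (6.32), NUAK1 (5.33), MARK2 (4.84), SIK3 (4.72), MARK1 (4.09) and NUAK2 (0.589 RPKM). RPKM values are divided by gene length, here the summed length of all annotated exons, so genes with many alternative exons, such as MARK3 with 21530 exonic bases, have lower values than a count per transcript would give. The last steps of this order held in each library: SIK3 was above MARK1 in 12 of 12 and MARK1 above NUAK2 in 12 of 12. The other neighbours overlapped. SIK2 was above BRSK2 in 11 libraries, BRSK2 above NUAK1 in 10, BRSK1 above MARK4 and MARK4 above MARK3 in 9 each, and MARK3 above SIK2, NUAK1 above MARK2 and MARK2 above SIK3 in 8 each. NUAK2 was covered by only 9 to 64 reads per library, and counting error alone is 33.3% of the value at 9 reads, whereas every other member had at least 91 reads in every library.

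**Figure D1:**
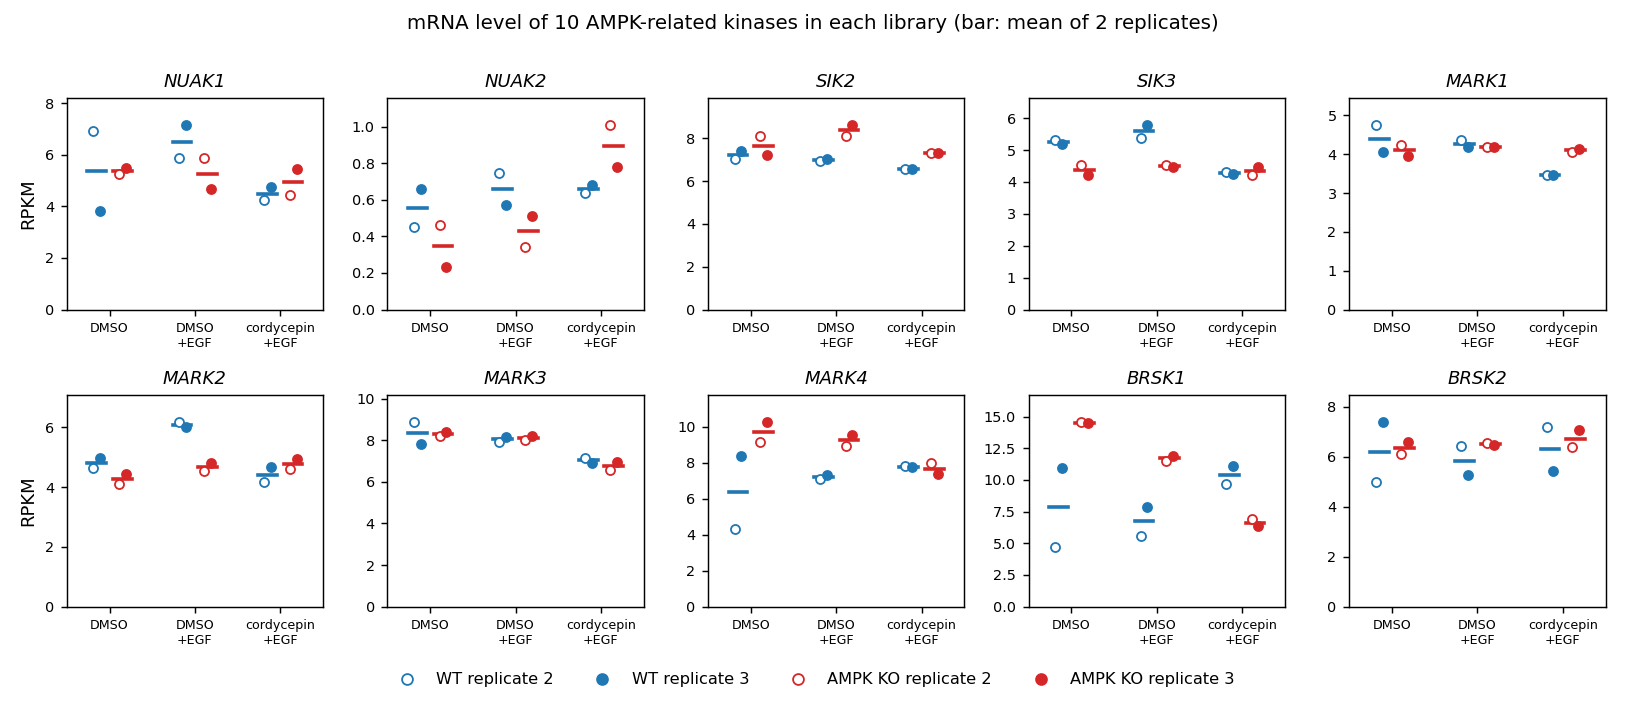
RPKM (y axis, from 0) of each of the 10 kinases by treatment, with WT in blue and AMPK KO in red, open circles for replicate 2, filled circles for replicate 3 and a bar at the mean of 2. BRSK1 and MARK4 vary most among the well covered members, and the WT DMSO replicates of BRSK1 (4.72 and 10.9 RPKM), MARK4 (4.34 and 8.40) and NUAK1 (6.93 and 3.82) lie far apart.

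The NUAK kinases comprised one moderately expressed and one barely expressed gene. NUAK1 (ENSG00000074590, chromosome 12, 106063345 to 106138954, minus strand, GRCh38), which phosphorylates the myosin phosphatase targeting subunit, had 6.93 and 3.82 RPKM in WT DMSO, 5.87 and 7.15 RPKM in WT DMSO+EGF and 4.24 and 4.76 RPKM in WT cordycepin+EGF. Its AMPK KO libraries had 5.25 and 5.49 RPKM in DMSO, 5.87 and 4.67 RPKM in DMSO+EGF and 4.46 and 5.44 RPKM in cordycepin+EGF. The widest gap was that between the WT DMSO replicates, and it spanned most of the other libraries. NUAK2 (ENSG00000163545, chromosome 1, 205302063 to 205321745, minus strand), the related kinase at the lowest level of the 10 members, had 0.450 and 0.659 RPKM in WT DMSO, 0.744 and 0.574 RPKM in WT DMSO+EGF and 0.634 and 0.680 RPKM in WT cordycepin+EGF. The AMPK KO libraries had 0.460 and 0.233 RPKM in DMSO, 0.341 and 0.513 RPKM in DMSO+EGF and 1.01 and 0.779 RPKM in cordycepin+EGF. Both AMPK KO libraries with cordycepin were above every other library.

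SIK2 and SIK3 varied 1.31-fold and 1.37-fold between their lowest and highest libraries. SIK2 (ENSG00000170145, chromosome 11, 111602449 to 111730855, plus strand), a kinase of the CRTC coactivators, had 7.02 and 7.4 RPKM in WT DMSO, 6.92 and 7.03 RPKM in WT DMSO+EGF and 6.58 and 6.59 RPKM in WT cordycepin+EGF. In AMPK KO cells it had 8.13 and 7.22 RPKM in DMSO, 8.14 and 8.62 RPKM in DMSO+EGF and 7.32 and 7.31 RPKM in cordycepin+EGF. SIK2 was thus higher in the AMPK KO libraries than in the WT libraries of the same treatment in DMSO+EGF and in cordycepin+EGF, and overlapped in DMSO. SIK3 (ENSG00000160584, chromosome 11, 116843402 to 117098437, minus strand), which acts on the same coactivators and deacetylases, had 5.32 and 5.19 RPKM in WT DMSO, 5.39 and 5.78 RPKM in WT DMSO+EGF and 4.32 and 4.24 RPKM in WT cordycepin+EGF. The AMPK KO libraries had 4.55 and 4.23 RPKM in DMSO, 4.54 and 4.48 RPKM in DMSO+EGF and 4.21 and 4.46 RPKM in cordycepin+EGF. The 4 WT libraries without cordycepin were above all other libraries. The ratio of SIK2 to SIK3 was 1.22 to 1.55 in the 6 WT libraries and 1.64 to 1.93 in the 6 AMPK KO libraries, and did not overlap between the lines. This ratio, and the ratios and sums given for the other kinases, were chosen after the values were seen.

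MARK kinases made up 39.7% to 45.2% of the summed RPKM of the 10 genes. MARK1 (ENSG00000116141, chromosome 1, 220528136 to 220664461, plus strand), a microtubule affinity regulating kinase, had 4.74 and 4.05 RPKM in WT DMSO, 4.35 and 4.19 RPKM in WT DMSO+EGF and 3.48 and 3.46 RPKM in WT cordycepin+EGF. Its AMPK KO values were 4.24 and 3.95 RPKM in DMSO, 4.19 and 4.17 RPKM in DMSO+EGF and 4.05 and 4.14 RPKM in cordycepin+EGF. The WT cordycepin+EGF libraries were the lowest of the 12. MARK2 (ENSG00000072518, chromosome 11, 63838928 to 63911020, plus strand), also called Par-1b for its part in epithelial polarity, had 4.66 and 4.98 RPKM in WT DMSO, 6.17 and 6.0 RPKM in WT DMSO+EGF and 4.17 and 4.66 RPKM in WT cordycepin+EGF. Its AMPK KO values were 4.09 and 4.43 RPKM in DMSO, 4.55 and 4.80 RPKM in DMSO+EGF and 4.61 and 4.93 RPKM in cordycepin+EGF. The WT DMSO+EGF libraries stood above the other 10.

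MARK3 (ENSG00000075413, chromosome 14, 103385377 to 103503831, plus strand), first known as a kinase of the phosphatase CDC25C, had 8.85 and 7.81 RPKM in WT DMSO, 7.92 and 8.17 RPKM in WT DMSO+EGF and 7.15 and 6.90 RPKM in WT cordycepin+EGF. The AMPK KO libraries had 8.20 and 8.39 RPKM in DMSO, 7.99 and 8.19 RPKM in DMSO+EGF and 6.55 and 6.93 RPKM in cordycepin+EGF. All 4 cordycepin libraries were below all 8 others. MARK4 (ENSG00000007047, chromosome 19, 45079288 to 45305284, plus strand), a kinase of tau and related proteins, had 4.34 and 8.40 RPKM in WT DMSO, 7.09 and 7.34 RPKM in WT DMSO+EGF and 7.83 and 7.75 RPKM in WT cordycepin+EGF. In AMPK KO cells MARK4 had 9.18 and 10.2 RPKM in DMSO, 8.92 and 9.56 RPKM in DMSO+EGF and 7.97 and 7.35 RPKM in cordycepin+EGF. The 4 AMPK KO libraries without cordycepin were the highest, and WT DMSO replicate 2 was the lowest. The annotated span of MARK4 reaches across several other genes, of which GEMIN7, on the same strand, shares 90 exonic bases with it.

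BRSK kinases, known from neurons, were both expressed in these kidney-derived cells. BRSK1 (ENSG00000160469, chromosome 19, 55282072 to 55312562, plus strand) had 4.72 and 10.9 RPKM in WT DMSO, 5.61 and 7.84 RPKM in WT DMSO+EGF and 9.67 and 11.1 RPKM in WT cordycepin+EGF. In AMPK KO cells it had 14.5 RPKM in both DMSO libraries, 11.5 and 11.9 RPKM in DMSO+EGF and 6.89 and 6.36 RPKM in cordycepin+EGF. The highest and the lowest BRSK1 values differed 3.08-fold. In WT cells the cordycepin+EGF libraries were above the DMSO+EGF libraries, and in AMPK KO cells they were below them. A noncoding gene on the opposite strand (ENSG00000268729) shares 359 of the 3954 exonic bases of BRSK1, and the strand setting of the counting was not stated. BRSK2 (ENSG00000174672, chromosome 11, 1389899 to 1462689, plus strand), the other member of the pair, had 4.99 and 7.38 RPKM in WT DMSO, 6.45 and 5.26 RPKM in WT DMSO+EGF and 7.21 and 5.43 RPKM in WT cordycepin+EGF. BRSK2 in AMPK KO cells had 6.10 and 6.58 RPKM in DMSO, 6.56 and 6.47 RPKM in DMSO+EGF and 6.38 and 7.08 RPKM in cordycepin+EGF. The gap between its WT DMSO replicates spanned its whole range. The ratio of BRSK1 to BRSK2 in AMPK KO cells was 2.38 and 2.21 in DMSO, 1.75 and 1.84 in DMSO+EGF and 1.08 and 0.898 in cordycepin+EGF. In WT cells the ratio was 0.947 and 1.48 in DMSO, 0.869 and 1.49 in DMSO+EGF and 1.34 and 2.04 in cordycepin+EGF. The WT replicates of this ratio thus lay far apart in each treatment.

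The summed RPKM of the 10 kinases was 52.0 and 60.6 in WT DMSO, 56.5 and 59.3 in WT DMSO+EGF and 55.3 and 55.5 in WT cordycepin+EGF. In AMPK KO cells the sum was 64.7 and 65.3 in DMSO, 62.6 and 63.4 in DMSO+EGF and 53.4 and 54.8 in cordycepin+EGF. Most of the difference within AMPK KO cells lay in the BRSK pair, whose sum was 20.6 and 21.1 RPKM in DMSO and 13.3 and 13.4 RPKM in cordycepin+EGF. The SIK pair stayed between 10.8 and 13.1 RPKM in all libraries.

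**Figure D2:**
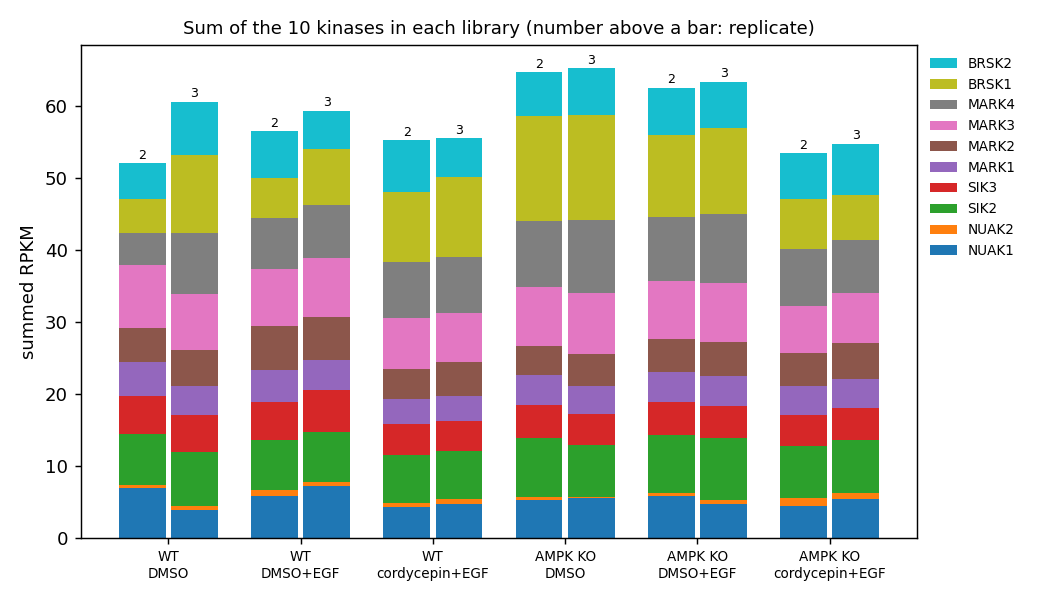
Summed RPKM (y axis, from 0) of the 10 kinases in each library, stacked by gene, with the replicate number above each bar. The sums run from 52.0 in WT DMSO replicate 2 to 65.3 in AMPK KO DMSO replicate 3, and the BRSK1 segment changes most in height.

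EGF was compared with DMSO in each line to ask whether growth factor stimulation moves these transcripts within 30 min. By limma with Benjamini-Hochberg adjustment over all genes tested, 0 of 10 members passed an adjusted p under 0.05 in WT cells (background 0.0227% of all genes), in AMPK KO cells (0.0136%) and over both lines (0.0227%), and voom on the recovered reads of 21245 genes also called 0 in each (background 0.0424%, 0.0188% and 0.0329%). At an unadjusted p under 0.05 there was 1 member in WT cells (background 9.72%), 0 in AMPK KO cells (2.42%) and 1 over both lines (3.53%). That member was MARK2, with a log2 fold change (Log2FC) of 0.28 in WT cells (moderated SE 0.12, adjusted p 0.509) and 0.13 in AMPK KO cells (95% interval -0.14 to 0.40). Averaged over the lines, MARK2 had a Log2FC of 0.21 (moderated SE 0.09, adjusted p 1.0). The members' Log2FC values lay between -0.14 and 0.28 in WT cells, with a median of -0.00 against 0.02 over all genes, and between -0.29 and 0.14 in AMPK KO cells, with a median of 0.04 against 0.01. For scale, EGR1 had a Log2FC of 6.16 in WT cells (adjusted p 2.48e-06).

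The intervals show what size of response the data could hold, given a spread for each gene that is pooled over all 6 groups. They do not follow the spread of the libraries compared: the half-width for BRSK1 was 0.68 in WT and in AMPK KO cells alike. In WT cells the widest was that of BRSK1, from -0.83 to 0.54, and among the narrowest were those of MARK3 (-0.32 to 0.17) and SIK2 (-0.32 to 0.18). For the difference of the EGF effect between the lines, limma and voom called 0 of 10 members at an adjusted p under 0.05 (background 0% in both), and 0 of 10 had an unadjusted p under 0.05 (background 8.69%). The differences, AMPK KO minus WT, ran from -0.30 for NUAK1 to 0.20 for SIK2.

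Cordycepin with EGF was compared with DMSO with EGF, so that the effect of the adenosine analogue is read in stimulated cells. In WT cells 0 of 10 members passed the adjusted threshold in limma (background 0.00453%) or in voom (3.58%), and 2 had an unadjusted p under 0.05 (background 16%). MARK2 had a Log2FC of -0.38 (moderated SE 0.12, adjusted p 0.267) and SIK3 one of -0.31 (moderated SE 0.12, adjusted p 0.283). In RPKM as deposited, before scaling, the libraries of 8 of 10 members, these genes among them, did not overlap between the groups. Lack of overlap thus does not set MARK2 and SIK3 apart, and its share over all genes was not computed. BRSK1 had the largest difference, 0.65 (95% interval -0.04 to 1.33, adjusted p 0.327). The median over the 10 members was -0.09, against 0.03 over all genes.

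In AMPK KO cells 0 of 10 members passed the adjusted threshold in limma (background 0.471%) or in voom (6.12%), and 2 had an unadjusted p under 0.05 (background 21.8%). BRSK1 had a Log2FC of -0.73 (moderated SE 0.30, adjusted p 0.205), and without either WT DMSO library in the fit, neither of which enters this comparison, the same difference passed with an adjusted p of 0.0360 (replicate 2 left out) or 0.0364 (replicate 3 left out). Over all alternatives its adjusted p ran from 0.0360 to 0.484. NUAK2 had a Log2FC of 0.62 (moderated SE 0.21, adjusted p 0.152), from 16 and 24 reads in DMSO+EGF to 50 in each cordycepin+EGF library. With a smaller pseudocount of 0.1 the NUAK2 value was 0.97 and in voom it was 1.21, neither of which passed adjustment. The median over all genes in this comparison was 0.19 in voom, which used no upper-quartile scaling, against 0.06 in limma.

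Over both lines 0 of 10 members passed the adjusted threshold for cordycepin in limma (background 0.965%) or in voom (3.62%), and 0 had an unadjusted p under 0.05 in limma (background 15.2%). MARK3, whose 4 cordycepin libraries were all below the others, had an averaged Log2FC of -0.17 (95% interval -0.35 to 0.00, adjusted p 0.335). Of the 10 averaged values 8 were negative, with a median of -0.10 against 0.02 over all genes.

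**Figure D3:**
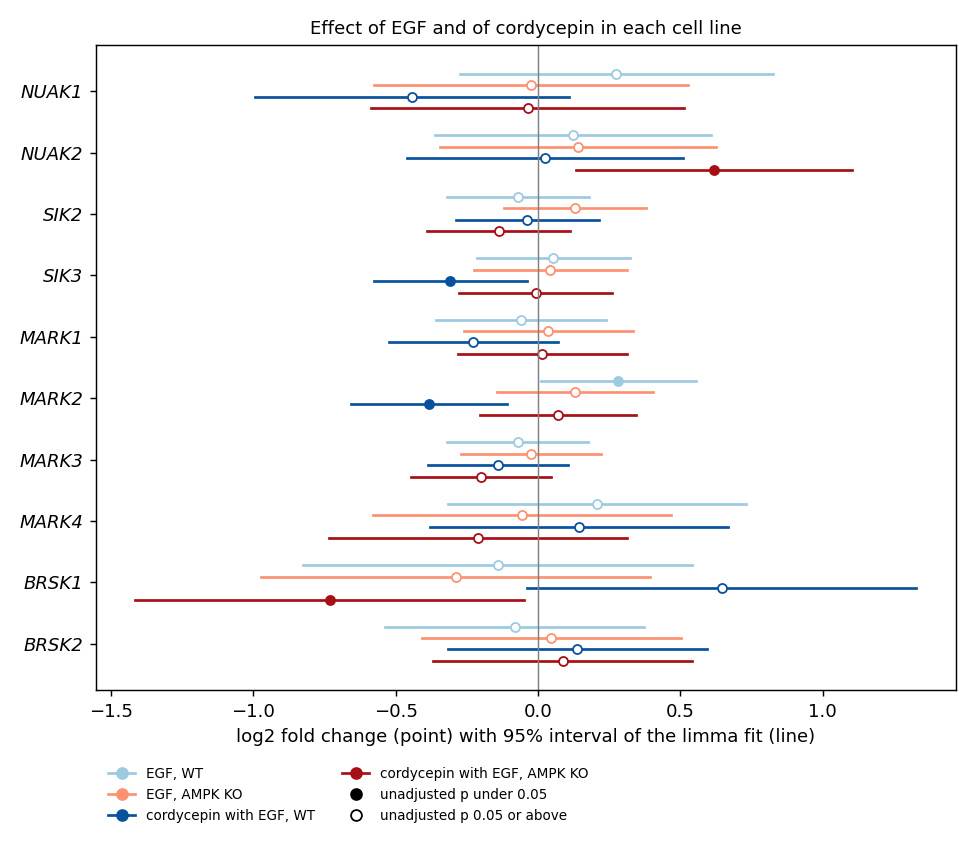
Log2 fold change (x axis) of each kinase for EGF against DMSO and for cordycepin with EGF against DMSO with EGF, in WT (blue) and AMPK KO (red) cells. Points are estimates, lines are 95% intervals, and filled points mark an unadjusted p under 0.05. The intervals of BRSK1 for cordycepin lie largely on opposite sides of 0 in WT (-0.04 to 1.33) and AMPK KO cells (-1.42 to -0.05).

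The cordycepin effect was compared between the lines with an interaction term, since the question of the design is whether cordycepin acts through AMPK. In limma 0 of 10 members passed an adjusted p under 0.05 (background 0%), and 2 had an unadjusted p under 0.05 (background 21.4%). BRSK1 had the largest difference, with the Log2FC in AMPK KO cells minus that in WT cells at -1.38 (moderated SE 0.43, unadjusted p 0.0104, adjusted p 0.142). It lay at percentile 95.8 of absolute differences among all genes tested. MARK2 had a difference of 0.45 (moderated SE 0.17, unadjusted p 0.0262, adjusted p 0.182), at percentile 56.2.

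The calls for this interaction depended on the fit. voom on the recovered reads called both, BRSK1 with a difference of -1.40 (adjusted p 0.0163) and MARK2 with 0.59 (adjusted p 0.0394), in a fit that called 10.4% of all genes. The median difference over all genes was 0.09 in voom, which used no upper-quartile scaling, against 0.02 in limma, a shift in the direction of the MARK2 value. With the 8 compared libraries alone BRSK1 passed (adjusted p 0.0394), as it did without WT DMSO replicate 2 (0.0194) or replicate 3 (0.0196), and over all alternatives its adjusted p ran from 0.0163 to 0.366, against 0.0394 to 0.413 for MARK2.

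AMPK KO cells were compared with WT cells in each treatment to ask whether these transcripts differ between the lines. In DMSO 0 of 10 members passed the adjusted threshold in limma (background 0.44%), 2 passed in voom (BRSK1 and MARK4, background 8.21%), and 2 had an unadjusted p under 0.05 (background 21.3%). BRSK1 had a Log2FC of 0.94 (moderated SE 0.30, adjusted p 0.146) and MARK4 one of 0.61 (moderated SE 0.23, adjusted p 0.183). Both rested on which WT DMSO library was kept. Without WT DMSO replicate 2 the values were 0.38 for BRSK1 (adjusted p 0.343) and 0.18 for MARK4 (adjusted p 0.51), and without the shallow replicate 3 they were 1.5 (adjusted p 0.00949) and 1.05 (adjusted p 0.00945). Over all alternatives the adjusted p ran from 0.00949 to 0.460 for BRSK1 and from 0.00945 to 0.537 for MARK4.

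GC content moved with this comparison and with others. BRSK1, BRSK2, MARK4 and NUAK2 belong to the quintile of tested genes with the highest GC content, and the median Log2FC in that quintile was 0.25 for AMPK KO against WT in DMSO, against -0.13 in the lowest quintile. The same quintiles had medians of 0.18 and -0.14 for WT DMSO replicate 3 minus replicate 2. For EGF in WT cells they had 0.24 and -0.11, and for the EGF effect of AMPK KO minus WT -0.35 and 0.19. A correction for GC content was chosen after seeing the data. After it, the AMPK KO against WT differences in DMSO were 0.63 for BRSK1 (adjusted p 0.236) and 0.41 for MARK4 (adjusted p 0.296). The other high-GC members, NUAK2 and BRSK2, had uncorrected values of -0.33 and 0.04 in this comparison. The part of GC content in these differences was not tested beyond the correction.

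In DMSO+EGF 0 of 10 members passed in limma (background 1.74%), 2 passed in voom (BRSK1 and MARK2, background 11.7%), and 3 had an unadjusted p under 0.05 (background 22.5%). BRSK1 had a Log2FC of 0.79 (moderated SE 0.30, adjusted p 0.167), and it passed without WT DMSO replicate 2 (adjusted p 0.0195) or replicate 3 (0.0197), which do not enter the comparison. MARK2 had a Log2FC of -0.33 (moderated SE 0.12, adjusted p 0.152) and SIK2 one of 0.26 (moderated SE 0.11, adjusted p 0.202). Over all alternatives the adjusted p ran from 0.0195 to 0.538 for BRSK1, from 0.0365 to 0.462 for MARK2 and from 0.120 to 0.588 for SIK2.

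With cordycepin and EGF 0 of 10 members passed in limma (background 0.118%) or in voom (1.93%), and 0 had an unadjusted p under 0.05 in limma (background 13.7%). Here BRSK1 had a negative value, -0.59 (95% interval -1.27 to 0.09, adjusted p 0.411), where it was positive in both treatments without cordycepin. MARK4 had a value of -0.00 (95% interval -0.53 to 0.52).

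Averaged over the treatments, 0 of 10 members passed in limma (background 4.34%), 2 passed in voom (BRSK1 and MARK4, background 10.6%), and 3 had an unadjusted p under 0.05 (background 20.4%). MARK4 had a Log2FC of 0.32 (moderated SE 0.13, adjusted p 0.221), SIK2 one of 0.16 (moderated SE 0.06, adjusted p 0.196) and SIK3 one of -0.16 (moderated SE 0.07, adjusted p 0.227). Without WT DMSO replicate 2 the MARK4 value was 0.18 (adjusted p 0.161), and without replicate 3 both MARK4 (0.47, adjusted p 0.00719) and BRSK1 (0.57, adjusted p 0.0107) passed. The median over the 10 members was 0.01, against 0.00 over all genes.

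**Figure D4:**
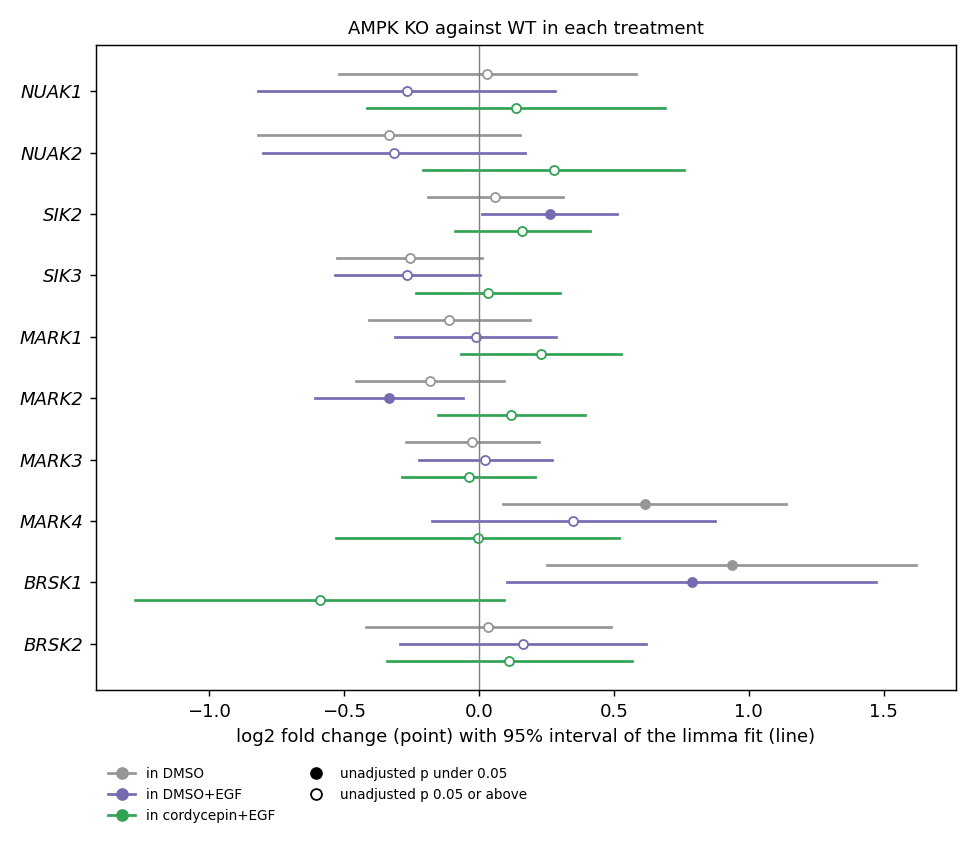
Log2 fold change (x axis) of each kinase in AMPK KO against WT cells in DMSO (grey), DMSO+EGF (purple) and cordycepin+EGF (green). Points are estimates, lines are 95% intervals, and filled points mark an unadjusted p under 0.05. BRSK1 has values of 0.94, 0.79 and -0.59 in these treatments.

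The rest of the family and its partners were counted in the same fit. Of the AMPK subunit genes, 6 were tested, and PRKAA1 passed in AMPK KO against WT cells in DMSO (Log2FC -1.26, adjusted p 0.0228), in DMSO+EGF (-1.12, adjusted p 0.0236) and averaged over treatments (-0.96, adjusted p 0.00201). No other subunit passed in any of the 12 comparisons in limma. In voom PRKAA2 also passed in each of these 3 comparisons (background 8.21%, 11.7% and 10.6%). voom further called PRKAA1 as lower with cordycepin in WT cells (background 3.58%) and in the cordycepin interaction (background 10.4%). PRKAA1 had 17.4 and 19.0 RPKM in WT DMSO+EGF and 11.3 and 11.2 RPKM in WT cordycepin+EGF. In AMPK KO cells it had 8.51 and 7.49 RPKM in DMSO+EGF and 7.03 and 8.50 RPKM in cordycepin+EGF. The other AMPK-related kinases SIK1, MELK, NIM1K, SNRK and HUNK had 0 of 5 calls in limma in each of the 12 comparisons. SIK1, a kinase related to SIK2 and SIK3, had a Log2FC of 0.64 for cordycepin in WT cells (unadjusted p 0.00983, adjusted p 0.267), with 2.25 and 2.10 RPKM in DMSO+EGF and 3.28 and 3.84 RPKM in cordycepin+EGF. SNRK, a sucrose-nonfermenting related kinase, had one of 0.51 in AMPK KO against WT cells in DMSO+EGF (unadjusted p 0.00762, adjusted p 0.0981). Both were called by voom in those comparisons (background 3.58% for that of SIK1 and 11.7% for that of SNRK).

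Among 8 upstream genes, which encode the LKB1 complex and other kinases that phosphorylate this family, limma called 0 in each of the 12 comparisons. STK11, the gene of LKB1, had a Log2FC of 0.79 in AMPK KO against WT cells in DMSO (unadjusted p 0.00119, adjusted p 0.068), against 0.05 in DMSO+EGF and -0.33 in cordycepin+EGF. TAOK1, a kinase upstream of MARK, had a Log2FC of -0.47 for cordycepin in AMPK KO cells (unadjusted p 0.00152, adjusted p 0.069). voom called STK11 in AMPK KO against WT cells in DMSO, 3 of 8 in DMSO+EGF (CAB39, CAB39L and TAOK1), CAB39 averaged over treatments and STRADB in the cordycepin interaction, beside the voom backgrounds of 8.21%, 11.7%, 10.6% and 10.4% for all genes. Among 14 tested substrates and partners, limma called MAP4 alone, a microtubule-associated protein phosphorylated by MARK kinases. Averaged over treatments it was higher in AMPK KO cells by a Log2FC of 0.35 (adjusted p 0.0376, background 4.34% of all genes). MAP4 had 14.6 and 13.5 RPKM in WT DMSO and 17.3 and 15.4 RPKM in AMPK KO DMSO. In DMSO+EGF it had 14.2 and 13.5 RPKM in WT and 17.8 and 18.2 RPKM in AMPK KO cells. In cordycepin+EGF it had 11.6 and 11.1 RPKM in WT and 13.9 and 17.8 RPKM in AMPK KO cells. In voom, which tested 10 of the list, MAP4 and HDAC4 were called in that comparison (background 10.6%) and MAP4 in cordycepin+EGF (background 1.93%). HDAC7, lower in AMPK KO cells, was called in DMSO+EGF (background 11.7%) and CRTC3 in the cordycepin interaction (background 10.4%). For HDAC7 and CRTC3, 1 call among 10 genes is near the background. Averaged over treatments, 1 limma call among 14 genes and 2 voom calls among 10 are also near their backgrounds for so few genes. These counts are therefore not read as a result about the list.

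The 14-3-3 proteins, which bind the phosphorylated substrates of these kinases, had 0 of 7 calls in limma and in voom in each of the 12 comparisons. For cordycepin in AMPK KO cells 4 of 7 had an unadjusted p under 0.05 and a lower value (10.1% of all genes), and the list's median Log2FC was -0.33, against 0.06 over all genes. YWHAH had -0.38 (unadjusted p 0.00555, adjusted p 0.101). In WT cells 6 of 7 values for cordycepin were also negative, with a median of -0.18 against 0.03 over all genes. There 0 of 7 had an unadjusted p under 0.05 (background 16%). Averaged over the lines 4 of 7 had one and were lower (background 15.2% in either direction), with a median of -0.26. For the cordycepin interaction 1 of 7 had an unadjusted p under 0.05 (background 21.4%).

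BRSK1 had the widest range of group means, and the genes whose log2 values followed it most closely over the 12 libraries were PIP4K2B (Pearson r = 0.986), CBFA2T2 (0.985) and TRIM35 (0.982). These values are a description over 12 libraries of 6 groups and were picked as the highest of all genes with a mean of at least 1 RPKM.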

How the data were processed

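Stranded, ribosomal RNA-depleted RNA of 12 libraries in 6 groups of 2 was sequenced as paired reads of 150 bases. The deposited values are RPKM, that is, reads per unit of gene length and library depth, which the authors made with Rsubread from reads mapped to GRCh38.p13. The tool versions, annotation, strand setting and gene filter are not given in the sources used here, and the submitters' processing notes also name FastQC. Replicate 1 of each group, which the authors set aside as an outlier, was not used here. The study calls its replicates biological. The labels do not say whether they came from separate cultures, and p-values measure the spread between these samples. The labels give 50 min of DMSO for the controls.

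The table held 26058 genes and 2 rows that name no gene, which were left out. Names and positions came from GENCODE release 44 (26029 matched). A read adds a fixed step to an RPKM value, from which reads were recovered, and 25082 genes (96.25%) gave whole reads within 0.05 of a read in all libraries. Intervals from read numbers cover counting error only.

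Values were divided by each library's upper quartile relative to the others, and the scale was log2(scaled RPKM + 0.5), on which changes of low genes are understated. limma 3.58.1 in R 4.3.3 (eBayes with trend, two-sided) was fitted to all 12 libraries with group means, over genes with a mean of at least 0.5 RPKM, with Benjamini-Hochberg adjustment within each of 12 comparisons over 22067 genes (6 residual degrees of freedom, 8.96 after moderation). The fit was run on simulated data with the real library depths but the same added spread for every gene and library. That run cannot show how the fit behaves where groups differ in spread beyond depth. Within a line, the DMSO+EGF libraries are the treated group for EGF and the control group for cordycepin. A deviation of these libraries therefore enters the EGF and cordycepin values with opposite signs. The same libraries also enter the comparisons between lines and the interactions. Alternatives were RPKM as deposited, median-ratio scaling, pseudocounts of 0.1 and 1, other filters, only the groups compared, a replicate block, no trend, voom on recovered reads and leaving out each library. A GC correction, a crossed block and a block within WT were added after seeing the data.

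The members, the lists and the rule for named genes were chosen with earlier results of these data known. All 10 members were named with their levels, statistics were given for an adjusted or unadjusted p under 0.05, list genes were named where they passed or, where none did, for the smallest unadjusted p, and up to 3 genes most like the member with the widest range of group means were named.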

Additional observations from a re-analysis of the deposited data

Results flagged for a closer look

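The effect of cordycepin differed between AMPK KO and WT cells for BRSK1 and MARK2 by the interaction term at an unadjusted p under 0.05, and neither passed adjustment over all genes in limma. For BRSK1 the difference, AMPK KO minus WT, was -1.38 on the log2 scale (adjusted p 0.142). Both WT cordycepin+EGF libraries were above both WT DMSO+EGF libraries, and both AMPK KO cordycepin+EGF libraries were below both AMPK KO DMSO+EGF libraries. Such a lack of overlap, judged on RPKM as deposited, before scaling, was found for 8 of 10 members in WT cells and for 7 of 10 in AMPK KO cells. In AMPK KO cells it included MARK1, lower as deposited but with a Log2FC of 0.02 after scaling, and SIK3 with -0.01. MARK4, like BRSK1, separated in opposite directions in the lines, with a difference of -0.35 (adjusted p 0.558). Separation of the libraries thus does not set BRSK1 apart, and its share over all genes was not computed. For MARK2 the difference was 0.45 (adjusted p 0.182). All 5 MARK2 differences with an unadjusted p under 0.05 include the WT DMSO+EGF libraries, so they are not separate results. Both WT cordycepin+EGF libraries of MARK2 were below the WT DMSO+EGF libraries, and the AMPK KO libraries overlapped. Of all genes tested, 21.4% had an unadjusted p under 0.05 for this interaction.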

How the results depend on the processing

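Over the 12 comparisons, 299 counts of called members were recomputed under the alternatives, and 286 stayed at 0. The other 13 were as follows. voom on recovered reads called 2 members each in AMPK KO against WT in DMSO, in DMSO+EGF, averaged over treatments and in the cordycepin effect of AMPK KO minus WT. A fit of only the groups compared called 1 in the last of these. With each library left out, the count ran from 0 to 1 for cordycepin in AMPK KO, from 0 to 2 for AMPK KO against WT in DMSO, from 0 to 1 in DMSO+EGF, from 0 to 2 averaged over treatments and from 0 to 1 for the cordycepin effect of AMPK KO minus WT, and every count above 0 came from leaving out a WT DMSO library, whose replicates differed most. The cause was not tested. The 16 differences with an unadjusted p under 0.05 gave 396 values under alternatives, of which 0 changed direction and 17 were called.

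With replicate numbers as a block, with the crossed replicate block or with a replicate block within WT, 0 of 10 members were called in each comparison. Deviations of same-numbered libraries correlated with r of 0.136 to 0.314 among WT groups (3 of 3 pairs over 0.1), of -0.122 to 0.031 among AMPK KO groups (0 of 3) and of -0.081 to 0.322 across the lines (4 of 9). The numbers thus deviated together among WT groups but not across all groups. A fit of only the groups compared is the same as the fit of all libraries for AMPK KO against WT averaged over treatments, and NUAK2 was not tested with a minimum of 1 RPKM.

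With 2 libraries a group and 9 reads of NUAK2 in the shallowest library, small changes of NUAK2 were not detectable at this depth. Values that use WT DMSO have the least precision, which the intervals do not show because their spread is pooled over all groups.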
